A study of Mus musculus with 9 samples.

Results

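The 10 genes described here encode surface proteins of myeloid progenitor cells: the antigens of the sort gate (Kit, Cd34, Fcgr3 and Fcgr2b) and receptors of hematopoietic growth factors (Il3ra, Csf2ra, Csf2rb, Csf3r, Csf1r and Flt3). They were followed through all 24 probes that the array's platform annotation assigns to them, of 45281 probes in all. The cells were leukemia stem cells from the bone marrow of C57BL/6 mice with the genotype Actin-dsRed, a ubiquitous red fluorescent label, and their leukemia was driven by MLL-AF9, a fusion oncogene of acute myeloid leukemia. They came from leukemic mice of the fourth serial transplant and, in every group alike, had been sorted as Hoechst low, dsRed+, c-kit hi, CD34+ and FcyRII hi. The 3 groups of 3 samples each carried the Csnk1a1 hairpin 94, the Csnk1a1 hairpin 97 or a control hairpin (Luc), and total RNA of each sample was read on 1 Illumina bead array. Csnk1a1 encodes casein kinase 1 alpha, which takes part in the control of beta-catenin and p53. The labels do not say how the hairpins were delivered or whether each replicate was a mouse or culture of its own. The p-values therefore cover the spread among these samples, which may be technical.

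Granulocyte-macrophage progenitors are recognised by c-Kit together with CD34 and high levels of the low-affinity Fc gamma receptors, and MLL-AF9 leukemia stem cells carry a similar surface phenotype. Kit and Flt3, like Csf1r, are receptor tyrosine kinases. The receptors of IL-3 and GM-CSF pair a ligand-specific alpha chain (Il3ra, Csf2ra) with the common beta chain (Csf2rb), and, like the G-CSF receptor Csf3r, signal through JAK kinases and STAT factors. Fcgr3 encodes an activating receptor for IgG that works with the Fc receptor gamma chain, whereas Fcgr2b encodes the inhibitory one, and antibodies commonly used in such gates bind both proteins. In myeloid cells the promoters of many of these receptors are known targets of the transcription factors PU.1 and C/EBP.

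Promoter windows ran from 250 bases before to 50 bases after an annotated start in RefSeq (GRCm38.p6). They are reported for 8 of the 10 genes. No window of Csf2rb or Csf1r is reported here, which does not show that RefSeq lacks an entry for them. Fcgr3 and Kit had 2 overlapping windows each, for 2 annotated starts. The windows shown, 1 per gene, are those of the 3 genes with a probe called in the mean of both hairpins against Luc, and capitals mark the PU.1 core GAGGAA, searched on both strands. By the gene coordinates given below, the windows of Fcgr3, Il3ra and Csf3r lie wholly inside the gene, downstream of its first base.
Fcgr3 (chr1:171059354-171059653, minus strand): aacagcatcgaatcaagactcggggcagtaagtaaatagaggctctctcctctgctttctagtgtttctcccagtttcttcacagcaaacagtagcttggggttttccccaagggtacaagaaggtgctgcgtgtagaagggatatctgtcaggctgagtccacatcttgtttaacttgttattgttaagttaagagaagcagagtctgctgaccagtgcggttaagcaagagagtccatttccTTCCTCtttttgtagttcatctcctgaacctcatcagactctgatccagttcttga
Fcgr2b (chr1:170976022-170976321, minus strand): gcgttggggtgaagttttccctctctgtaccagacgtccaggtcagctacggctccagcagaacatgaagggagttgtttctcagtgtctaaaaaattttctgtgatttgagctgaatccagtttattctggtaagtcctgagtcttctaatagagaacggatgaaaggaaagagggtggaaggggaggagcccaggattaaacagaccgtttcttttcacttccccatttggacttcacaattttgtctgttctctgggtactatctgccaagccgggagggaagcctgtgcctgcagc
Il3ra (chr14:14346245-14346544, plus strand): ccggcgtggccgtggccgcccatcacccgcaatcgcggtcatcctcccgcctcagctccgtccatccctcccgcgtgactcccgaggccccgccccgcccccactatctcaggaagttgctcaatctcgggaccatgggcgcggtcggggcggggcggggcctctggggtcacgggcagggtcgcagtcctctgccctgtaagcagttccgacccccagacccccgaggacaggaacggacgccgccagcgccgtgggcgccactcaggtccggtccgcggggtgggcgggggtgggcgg
Counted from the start, the Fcgr3 window held the PU.1 core at position -6 and a C/EBP motif (TTGCNNAA, both strands) at -28, with no overlap of the motifs. The Il3ra window held a C/EBP motif at -134 and no PU.1 core, and the Fcgr2b window held neither. Of the 32817 promoter windows of the same length in the table, 28.3% held the PU.1 core and 10.8% the C/EBP motif, so either motif alone is common. The RUNX core TGTGGT, found in 16.8% of all windows, and the STAT motif TTCNNNGAA, found in 8.29%, were in none of the windows found for these 8 genes. Csf2ra had 2 adjacent PU.1 cores, at -14 and -8, Csf3r had 1 at -86, and Kit had 1 at -223 from the first of its starts, while Cd34 and Flt3 had none. These matches describe the letters of the windows and were not tested against binding or expression.

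The arrays of the groups differed in brightness. A probe was taken as detected where its deposited detection p was under 0.05. By that measure hairpin 94 arrays detected 13053 to 14280 probes, hairpin 97 arrays 12969 to 14168 and Luc arrays 9262 to 10347. The mean signal was 167.6 to 195.8 units on hairpin 94 arrays, 174.6 to 201.1 on hairpin 97 arrays and 129.3 to 131.7 on Luc arrays. Both measures were higher in the 6 knockdown arrays without overlap (exact permutation p = 0.0119 each, two-sided, the smallest that 84 splits allow). Brightness and knockdown therefore cannot be told apart in comparisons with Luc, and each direction below is given with the scalings under which it held. The single Csnk1a1 probe was detected on 0 of 9 arrays (detection p 0.293 to 0.862), so the extent of the knockdown could not be read from these data.

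Of the 24 probes, 12 were detected on at least 3 arrays and could be tested, covering 9 of the 10 genes, and 5 of these were detected on all 9 arrays. These 5 were 1 probe each of Kit, Fcgr3, Fcgr2b, Il3ra and Csf2ra, each with a deposited detection p of 0 on every array. Between 12 and 16 of the 24 probes were detected on a hairpin 94 array, 11 or 12 on a hairpin 97 array and 7 to 10 on a Luc array. Of the 12 untested probes, 5 were detected on no array, 3 on 1 array and 4 on 2 arrays. Flt3 was the gene without a tested probe: its probe ILMN_2576268 had detection p from 0.243 to 0.609 and ILMN_2761370 from 0.184 to 0.793.

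**Figure D1:**
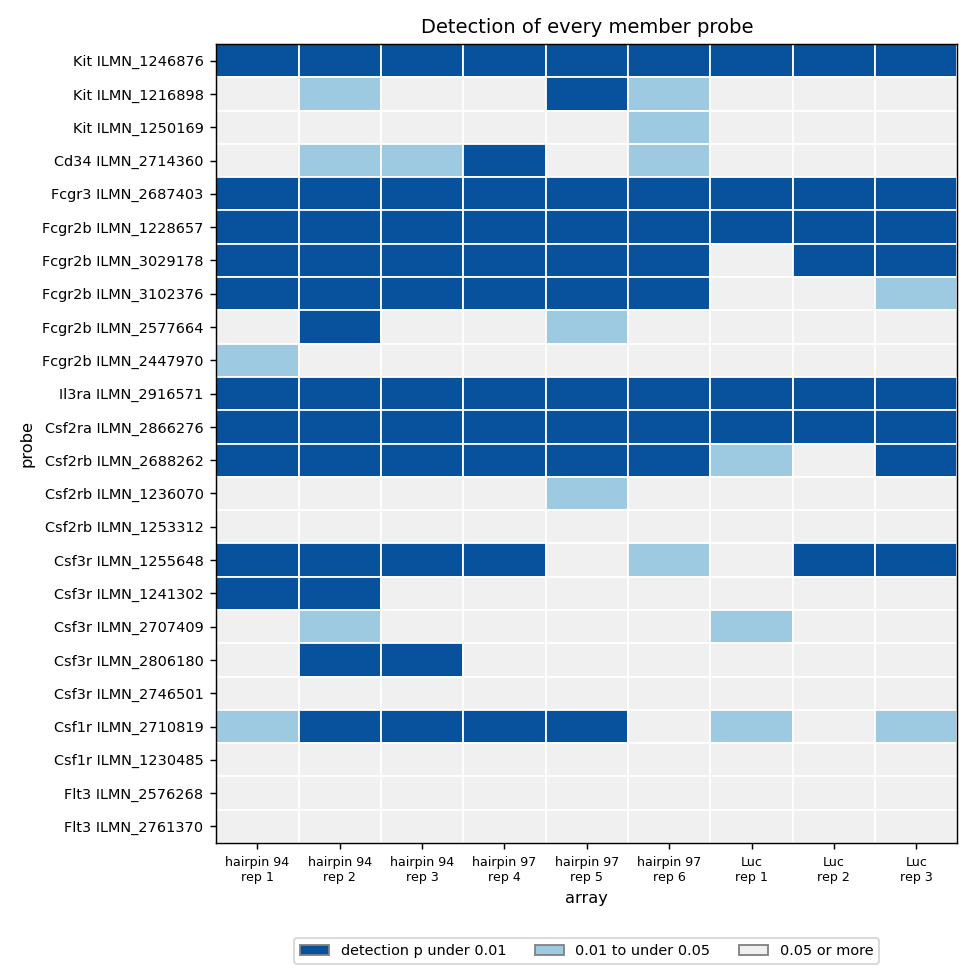
Detection of every probe of the 10 genes (rows) on every array (columns, hairpin 94, hairpin 97, then Luc), coloured by the deposited detection p. The 5 probes of Kit, Fcgr3, Fcgr2b, Il3ra and Csf2ra that were detected throughout stand out as full dark rows, and the 2 Flt3 rows are empty.

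Values below are log2 signals after background correction and quantile normalization, and a fold change is the difference of group means, knockdown minus Luc. In the mean of both hairpins against Luc, 3 of the 12 tested probes were called higher and 1 lower by limma (adjusted p under 0.05 over all 13641 detected probes), and 7 of 12 had an unadjusted p under 0.05. Over all detected probes 25.0% were called higher and 15.2% lower, 40.2% in either direction, so the share among these 12 probes, 33.3%, was not above the background. Their median log2 fold change was 0.21, against 0.11 over all detected probes. Hairpin 94 alone gave 2 higher and 1 lower call, where 20.0% of all detected probes were higher and 12.3% lower (32.4% together). Hairpin 97 alone gave 3 higher and 3 lower calls, where 20.6% of all detected probes were higher and 12.3% lower (32.9% together). Both contrasts use the same 3 Luc arrays.

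**Figure D2:**
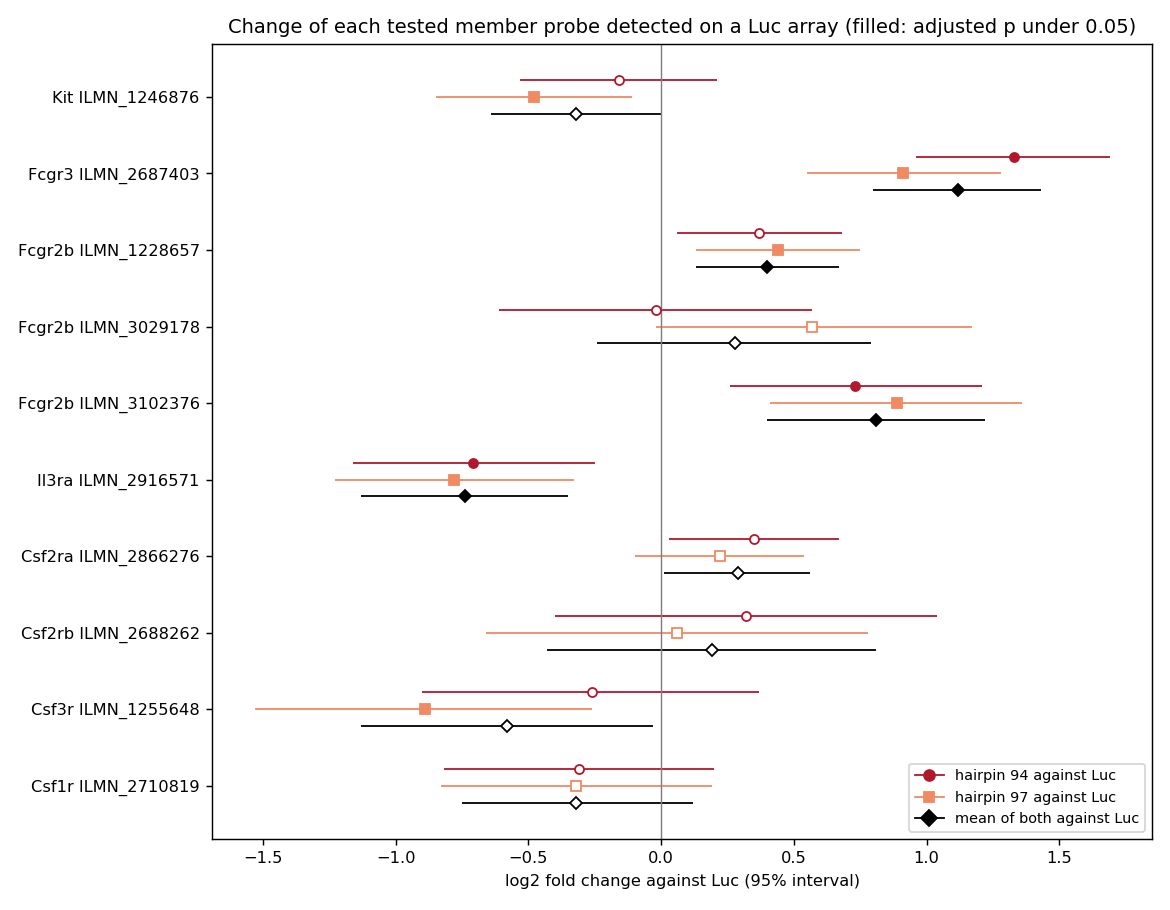
Log2 fold change against Luc (x axis, with 95% interval) of the 10 tested probes with detection on at least 1 Luc array (rows), for hairpin 94, hairpin 97 and the mean of both; filled marks have an adjusted p under 0.05 by limma. Fcgr3 lies farthest to the right at 1.12 in the mean of both hairpins and Il3ra farthest to the left at -0.74.

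Kit (chr5:75574987-75656722, GRCm38.p6), the receptor of stem cell factor and the c-kit antigen of the gate, was clearly detected in every sample through the probe ILMN_1246876. Its log2 signal was 7.68, 8.05 and 7.56 on hairpin 94 arrays, 7.54, 7.49 and 7.32 on hairpin 97 arrays, and 7.84, 8.16 and 7.78 on Luc arrays. All hairpin 97 arrays lay below all Luc arrays, whereas hairpin 94 arrays overlapped them. The log2 fold change of ILMN_1246876 was -0.48 with hairpin 97 (SE 0.168, adjusted p = 0.0489 by limma), -0.16 with hairpin 94 (adjusted p = 0.486) and -0.32 in the mean of both (SE 0.145, adjusted p = 0.101). The hairpin 97 call of Kit rested on single arrays: it was lost in 6 of 9 fits that each left out 1 array (Luc replicate 1 or 2, hairpin 94 replicate 1, or any hairpin 97 replicate), with adjusted p up to 0.154 without hairpin 97 replicate 6. Before normalization the Kit signal ran the other way, at 273.1 to 485.1 units on knockdown arrays and 177.4 to 215.2 on Luc arrays, a ratio of 1.72. The other Kit probes were near background. ILMN_1216898 was detected on 1 hairpin 94 array, 2 hairpin 97 arrays and 0 Luc arrays and passed the detection filter through knockdown arrays alone, with a limma adjusted p of 0.18 and no fold given. ILMN_1250169 was detected on 1 hairpin 97 array (detection p 0.0385).

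Cd34 (chr1:194938821-194961292, GRCm38.p6), a sialomucin of progenitor and endothelial cells and also a gate antigen, had 1 probe close to background. ILMN_2714360 was detected on 2 hairpin 94 arrays, 2 hairpin 97 arrays and 0 Luc arrays. Its signals were 96.36, 99.99 and 107.9 units with hairpin 94, 108.0, 97.63 and 104.7 with hairpin 97, and 98.09, 101.6 and 98.15 with Luc, so the groups overlapped. The detection p of Cd34 ran from 0.0203 to 0.397 with hairpin 94, from 0.00321 to 0.299 with hairpin 97 and from 0.179 to 0.629 with Luc. The limma adjusted p was 0.317, and since the probe was not above background on any Luc array, no fold is given. The transcript of an antigen that selected the cells was thus not detected in Luc samples by this probe.

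Fcgr3 (chr1:171051169-171065915, GRCm38.p6) was higher in knockdown cells with both hairpins. Its signal was 503.8, 632.9 and 575.7 units on hairpin 94 arrays, 532.6, 428.6 and 420.5 on hairpin 97 arrays, and 138.1, 161.4 and 170.1 on Luc arrays. After normalization the log2 values of ILMN_2687403 were 8.79, 8.50 and 8.60 with hairpin 94, 8.20, 8.34 and 8.12 with hairpin 97, and 6.99, 7.40 and 7.53 with Luc. Neither knockdown group overlapped with Luc on either scale, and on the log2 scale the lowest hairpin 94 array lay above the highest hairpin 97 array. The log2 fold change was 1.12 in the mean of both hairpins (SE 0.143, adjusted p = 0.000341 by limma), or 2.17-fold. Hairpin 94 gave 1.33 (SE 0.165, adjusted p = 0.000554) and hairpin 97 gave 0.91 (SE 0.165, adjusted p = 0.00262) in the same limma fit. The call of Fcgr3 held in all 9 fits that left out 1 array, with 0.96 to 1.23 in the mean of both hairpins. In bulk RNA a different number of cells of a type and a different amount of RNA per cell cannot be told apart. Fcgr3 is also expressed by maturing neutrophils and monocytes, and the measured genes of the mature neutrophil list were called higher too, as described further on. Mmp8, Mmp9, Cxcr2 and Retnlg of that list were detected on few or no arrays. The part of these cells in the change of Fcgr3 was not tested.

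Fcgr2b (chr1:170960558-170976071, GRCm38.p6), which lies near Fcgr3 on chromosome 1, was higher by 2 of its 3 tested probes. The brightest one, ILMN_1228657, had log2 signals of 8.10, 8.40 and 8.38 with hairpin 94, 8.48, 8.40 and 8.22 with hairpin 97, and 7.90, 8.0 and 7.88 with Luc. All knockdown arrays exceeded all Luc arrays, although by less than for Fcgr3. Its log2 fold change was 0.40 in the mean of both hairpins (SE 0.122, adjusted p = 0.0231 by limma), 0.37 with hairpin 94 (adjusted p = 0.0689) and 0.44 with hairpin 97 (adjusted p = 0.0348). The call in the mean of both hairpins was lost without Luc replicate 1 (adjusted p = 0.0538), Luc replicate 3 (0.0549) or hairpin 97 replicate 4 (0.0544), while the fold change stayed between 0.37 and 0.45. The hairpin 97 call of ILMN_1228657 was lost without Luc replicate 1 or 3 or hairpin 97 replicate 4 or 5, with adjusted p up to 0.122, and hairpin 94 gained a call without its replicate 1 (0.0477).

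The other Fcgr2b probes were dimmer. ILMN_3102376 had log2 signals of 5.14, 5.71 and 5.25 with hairpin 94, 5.39, 5.35 and 5.82 with hairpin 97, and 4.33, 4.58 and 4.99 with Luc, where it was detected on 1 of 3 arrays. Its log2 fold change was 0.81 (SE 0.187, adjusted p = 0.00623 by limma) and turned to -0.29 after scaling over commonly detected probes. With cyclic loess it was 0.22 and not called (adjusted p = 0.335). Hairpin 94 gave 0.73 (adjusted p = 0.0246), a call lost without Luc replicate 1 (0.064) or hairpin 94 replicate 2 (0.0976) and in a fit of those groups alone (0.0502), and hairpin 97 gave 0.89 (adjusted p = 0.0103). ILMN_3029178, assigned to the same transcript, was detected on all knockdown arrays and 2 of 3 Luc arrays and did not pass, with 0.28 in the mean of both hairpins (adjusted p = 0.365) and -0.10 without Luc replicate 1. Hairpin 97 alone gained a call, at 0.79, without Luc replicate 3 (adjusted p = 0.0413). It separated the hairpins instead, with 5.80, 5.84 and 5.98 for hairpin 97 above 5.11, 5.46 and 5.28 for hairpin 94, a log2 difference of 0.60 (unadjusted p = 0.0494, adjusted p = 0.582 by limma). ILMN_2577664 was detected on 1 hairpin 94 and 1 hairpin 97 array, and ILMN_2447970 on 1 hairpin 94 array (detection p 0.0438). Fcgr3 and Fcgr2b share similar extracellular parts, and whether probes bind both transcripts was not tested.

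Il3ra (chr14:14345912-14355493, GRCm38.p6), the alpha chain of the IL-3 receptor, was the probe called lower with both hairpins. ILMN_2916571 had log2 signals of 6.55, 6.34 and 6.87 with hairpin 94, 6.53, 6.46 and 6.55 with hairpin 97, and 7.10, 7.02 and 7.75 with Luc. All 6 knockdown arrays lay below the 3 Luc arrays. The log2 fold change was -0.74 in the mean of both hairpins (SE 0.178, adjusted p = 0.00761 by limma), -0.71 with hairpin 94 (adjusted p = 0.0238) and -0.78 with hairpin 97 (adjusted p = 0.0151). In the mean of both hairpins the call held in all 9 fits that left out 1 array, with -0.88 to -0.51, the smallest change being that without Luc replicate 3. The hairpin 94 call was lost without Luc replicate 3 (adjusted p = 0.0516), hairpin 94 replicate 1 (0.0701) or hairpin 94 replicate 2 (0.0922), and the hairpin 97 call without hairpin 97 replicate 5 (0.0522). The deposited Il3ra signals overlapped, at 171.8 to 229.2 units on knockdown arrays and 142.0 to 186.8 on Luc arrays, so Il3ra was lower only in relation to the rest of each array.

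Csf2ra (chr19:61217191-61228461, GRCm38.p6), the GM-CSF receptor alpha chain, did not pass. ILMN_2866276 had log2 signals of 7.89, 7.79 and 8.01 with hairpin 94, 7.79, 7.88 and 7.63 with hairpin 97, and 7.62, 7.34 and 7.67 with Luc. Hairpin 94 arrays lay above Luc arrays and 1 hairpin 97 array lay among them. In the mean of both hairpins its log2 fold change was 0.29 (95% interval 0.01 to 0.56, adjusted p = 0.09 by limma). The Csf2ra call depends on the processing, since the probe passed at 0.20 without background correction (adjusted p = 0.0393) at 0.17 in the authors' processed values (adjusted p = 0.0337) and at 1.73 with scaling over all probes.

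Csf2rb (chr15:78325800-78351001, GRCm38.p6), the common beta chain, gave no called change. ILMN_2688262 had log2 signals of 5.92, 5.24 and 5.87 with hairpin 94, 5.25, 5.59 and 5.41 with hairpin 97, and 5.62, 4.50 and 5.94 with Luc, where replicate 2 was not detected. Luc arrays spanned the whole range of the knockdown arrays. The log2 fold change was 0.19 (95% interval -0.43 to 0.81, adjusted p = 0.616 by limma), and it was -0.24 without Luc replicate 2. ILMN_1236070 was detected on 1 hairpin 97 array (detection p 0.0256) and ILMN_1253312 on 0 arrays. Mice carry a closely similar second gene, Csf2rb2, and whether these probes tell them apart was not tested.

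Csf3r (chr4:126023441-126044975, GRCm38.p6), the G-CSF receptor of the granulocyte lineage, was measured by 5 probes, of which 1 was tested. ILMN_1255648 had log2 signals of 5.51, 5.53 and 5.10 with hairpin 94, 4.96, 4.60 and 4.70 with hairpin 97, and 4.93, 5.73 and 6.28 with Luc. It was detected on 3 hairpin 94, 2 hairpin 97 and 2 Luc arrays, and the Luc arrays overlapped with both knockdown groups. The log2 fold change was -0.58 in the mean of both hairpins (SE 0.249, adjusted p = 0.0861 by limma), -0.26 with hairpin 94 (adjusted p = 0.51) and -0.89 with hairpin 97 (adjusted p = 0.0353). The hairpin 97 call of Csf3r was kept only without Luc replicate 1 or hairpin 94 replicate 3 and was lost in the other 7 of 9 fits, with adjusted p up to 0.11 without hairpin 97 replicate 5. Without Luc replicate 1, which did not detect the probe, the mean of both hairpins became -0.94 (adjusted p = 0.00334) and hairpin 94 -0.62 (0.0429), whereas without Luc replicate 3 the mean of both was -0.26. The scaling mattered too. In the mean of both hairpins Csf3r (ILMN_1255648) was called lower with cyclic loess (-0.61, adjusted p = 0.00754) and with scaling over commonly detected probes (-1.22, adjusted p = 2.34e-05), and was 0.22 with scaling over all probes. There the hairpin 97 value was -0.15 (adjusted p = 0.599), and hairpin 94 was called higher at 0.58 (0.0366). Of the dimmer Csf3r probes, ILMN_1241302 and ILMN_2806180 were each detected on 2 hairpin 94 arrays and on no hairpin 97 or Luc array. ILMN_2707409 was detected on 1 hairpin 94 and 1 Luc array and ILMN_2746501 on 0 arrays.

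Csf1r, the macrophage colony-stimulating factor receptor on chromosome 18 and a marker of monocytes, was close to background. ILMN_2710819 had log2 signals of 4.68, 4.84 and 4.82 with hairpin 94, 4.80, 4.99 and 4.53 with hairpin 97, and 5.50, 4.52 and 5.25 with Luc, and 1 hairpin 97 and 1 Luc array did not detect it. Its change was -0.32 on the log2 scale (95% interval -0.75 to 0.12, adjusted p = 0.228 by limma), but it was -0.60 and called without Luc replicate 2 (adjusted p = 0.0127) and -0.11 without Luc replicate 1. Its deposited signals were nearly the same, at 100.4 to 111.9 units on knockdown arrays and 104.2 to 112.5 on Luc arrays. ILMN_1230485 was detected on 0 arrays (detection p 0.0801 to 0.923).

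**Figure D3:**
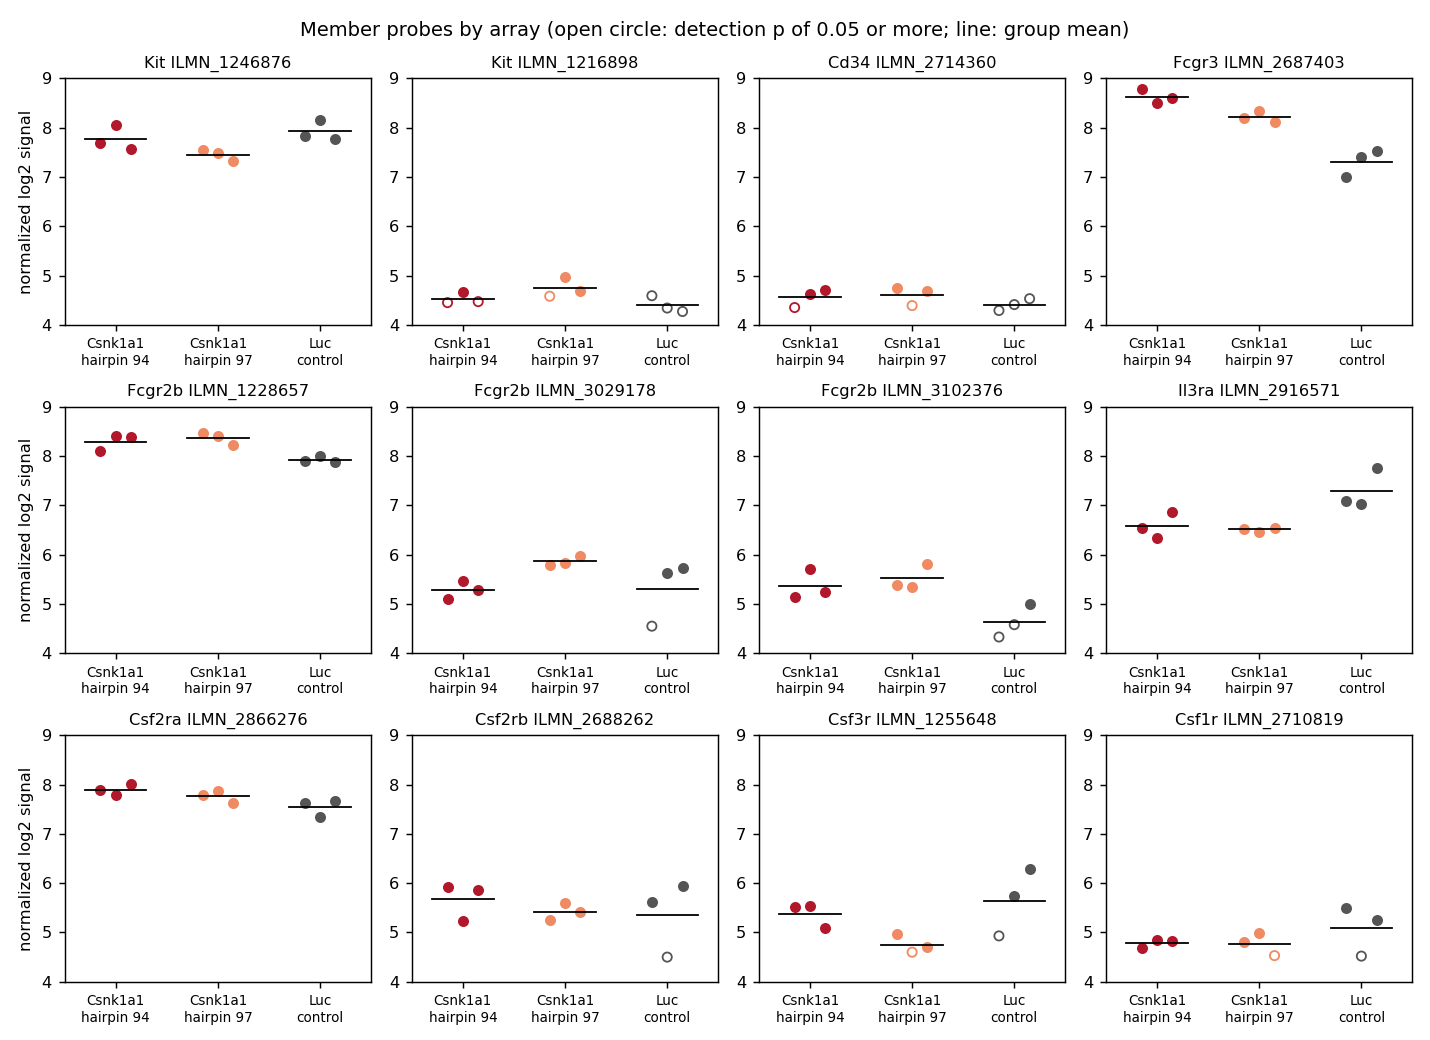
Normalized log2 signal (y axis) of the 12 tested probes by array, for hairpin 94, hairpin 97 and Luc; lines are group means (n = 3) and open circles are arrays with a detection p of 0.05 or more. Fcgr3 sits between 8.12 and 8.79 on knockdown arrays, above 6.99 to 7.53 on Luc arrays, and Il3ra between 6.34 and 6.87, below 7.02 to 7.75 on Luc arrays.

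How arrays were brought to a common scale changed the directions. Over all detected probes the median log2 fold change of the mean of both hairpins was 0.11 after quantile normalization, 0.88 when arrays were scaled to the median of all probes, -0.55 when scaled to the median of the 6891 probes with detection on every array (called scaling over commonly detected probes below), and 0.00 with cyclic loess. Of all called probes 62.2% were higher after quantile normalization, 99.9% and 15.6% under those scalings and 47.8% with cyclic loess. Fcgr3 was higher and called under all 6 ways of processing compared, from 0.70 in the authors' processed values to 2.56 with scaling over all probes. Fcgr2b (ILMN_1228657) was also higher and called under all 6, from 0.26 to 1.85. Il3ra was lower and called under 5, from -0.76 to -0.35, but it was called higher at 0.68 (adjusted p = 0.00604) with scaling over all probes. Relative to the median of all probes, quantile normalization placed Fcgr3 at 1.01, Fcgr2b (ILMN_1228657) at 0.29, Csf2ra at 0.18, Kit (ILMN_1246876) at -0.43 and Il3ra at -0.85. Both scalings, which differ from each other by 1 factor per array and so give the same relative values, placed them at 1.67, 0.96, 0.85, 0.25 and -0.20 in that order. Kit (ILMN_1246876) was called higher at 1.13 with scaling over all probes and, without a call, was between -0.32 and -0.19 under the other 5. With each array's count of detected probes as a covariate, which is nearly the same as the knockdown contrast here, limma called 0 of 13641 probes, with 1390 at an unadjusted p under 0.05, and Fcgr3 had 0.96 (adjusted p = 0.555).

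**Figure D4:**
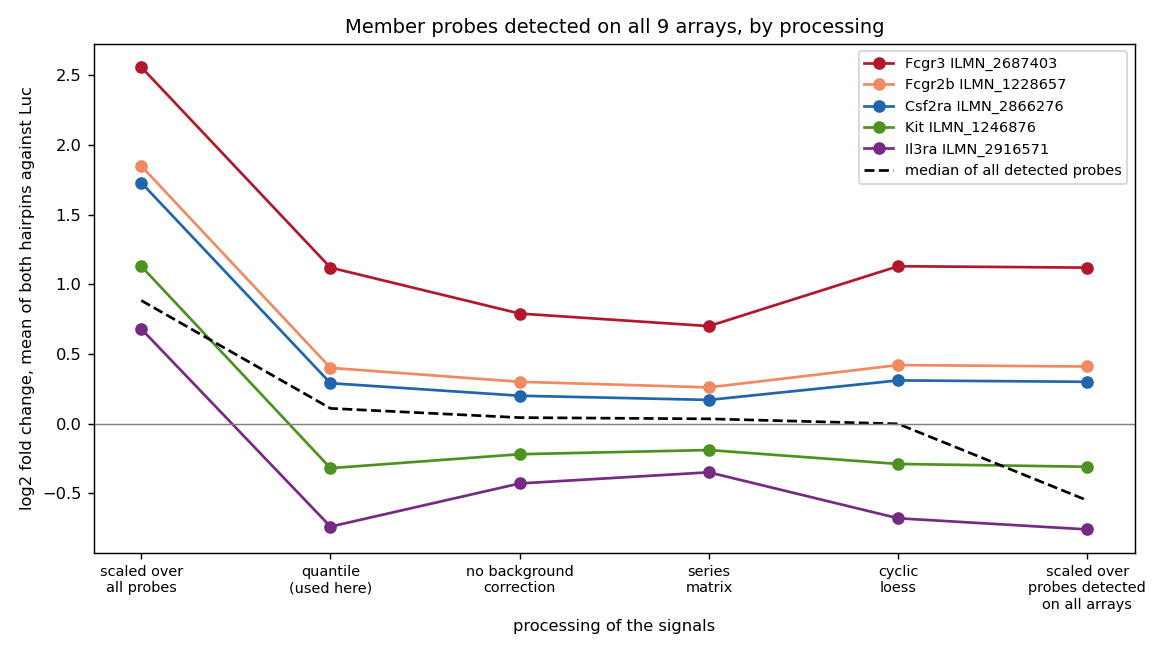
Log2 fold change of the mean of both hairpins against Luc (y axis) for the 5 probes detected on all 9 arrays, under 6 ways of processing the signals (x axis; lines only join the values of 1 probe), with the median of all detected probes as a dashed line. Fcgr3 is uppermost throughout and Il3ra lowest of the 5 throughout, while all 5 move up together with scaling over all probes.

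The difference between probes within an array does not depend on a factor applied to the whole array. The 10 pairs of these 5 probes were therefore compared between the 6 knockdown and 3 Luc arrays. A brightness difference that varies with the signal level is not removed in this way. Since every Luc array was dimmer, the shifts between groups cannot be told apart from such a brightness difference. A difference between 2 probes is read only as a change between groups, because signals of different probes are not levels on 1 scale. Fcgr3 minus Il3ra was 2.04 ± 0.27 with hairpin 94, 1.70 ± 0.16 with hairpin 97 and 0.01 ± 0.32 with Luc (SD, n = 3 each), a shift of 1.86 (exact permutation p = 0.0119, adjusted over 10 pairs 0.0198). Fcgr3 minus Kit was 0.87 ± 0.36, 0.77 ± 0.10 and -0.62 ± 0.32 for hairpin 94, hairpin 97 and Luc (SD, n = 3 each), a shift of 1.44 (exact permutation p = 0.0119, adjusted 0.0198). Fcgr2b minus Il3ra shifted by 1.14, Fcgr2b minus Kit by 0.72, Fcgr3 minus Csf2ra by 0.83 and Csf2ra minus Il3ra by 1.03, each with the same adjusted exact p of 0.0198. Fcgr3 minus Fcgr2b shifted by 0.72 (adjusted exact p = 0.034) and Csf2ra minus Kit by 0.61 (adjusted exact p = 0.0446). For Fcgr2b minus Csf2ra the shift was 0.12 (adjusted exact p = 0.405) and for Kit minus Il3ra 0.42 (adjusted exact p = 0.278), with overlapping arrays in both. The smallest exact p that 84 splits allow is 0.0119. The 10 pairs recombine 5 probes on the same arrays as the calls above, so these p-values are not independent of each other or of those calls. The splits take the arrays of both hairpins as 1 group. How often pairs of other detected probes shift was not tested. Without any scaling of arrays the 10 shifts differed little, for example 1.88 for Fcgr3 minus Il3ra and 1.43 for Fcgr3 minus Kit.

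**Figure D5:**
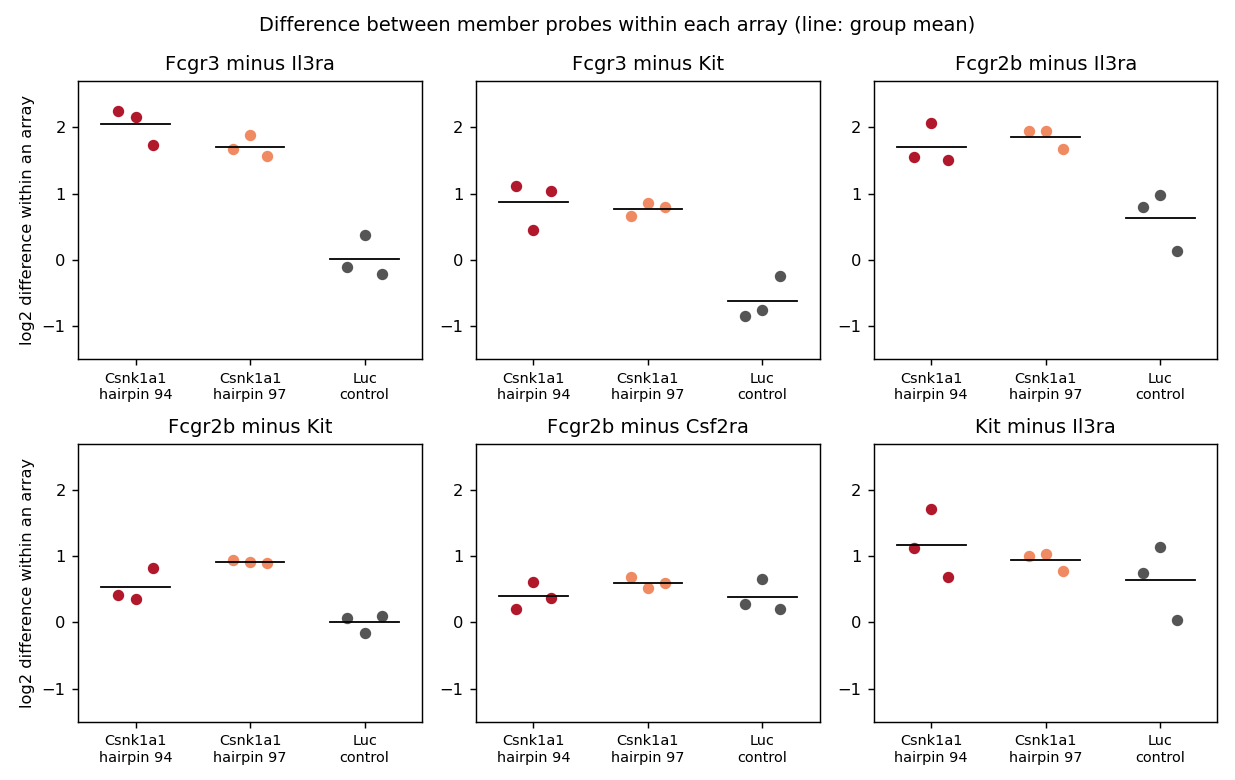
Difference of log2 signals of 2 probes within each array (y axis) for 6 of the 10 pairs, by group; lines are group means (n = 3). For Fcgr3 minus Il3ra, Fcgr3 minus Kit, Fcgr2b minus Il3ra and Fcgr2b minus Kit every knockdown array lies above every Luc array, whereas Fcgr2b minus Csf2ra and Kit minus Il3ra overlap.

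Hairpin 97 and hairpin 94 arrays were about equally bright, and none of the 12 probes was called between them by limma, with 19 of 13641 probes (0.139%) called overall. An unadjusted p under 0.05 was reached by 2 of the 12, Fcgr3 and the Fcgr2b probe ILMN_3029178. For Fcgr3 the difference was -0.41 (95% interval -0.78 to -0.05, adjusted p = 0.518). For Csf3r (ILMN_1255648) it was -0.63 (95% interval -1.26 to 0.00, adjusted p = 0.592), with hairpin 97 arrays all below hairpin 94 arrays. For Kit (ILMN_1246876) it was -0.32 (95% interval -0.69 to 0.05, adjusted p = 0.675), again without overlap. Il3ra differed by -0.07 (95% interval -0.53 to 0.38).

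The 9 arrays also show which genes had a pattern most like these 5 probes, among 6027 probes with 1 gene symbol that were detected on all arrays. Because the points share groups and brightness, the correlations are descriptions over 9 arrays. Fcgr3 was followed most closely by Asns (r = 0.983), Emc2 (0.974) and Phf10 (0.971). Fcgr2b was followed by Noct (0.959), Ubtf (0.955) and S100a8 (0.952), Csf2ra by Tmem160 (0.97), Elovl1 (0.943) and Pomp (0.93). Il3ra was followed by Rxrb (0.978), Ogdh (0.974) and H2bc11 (0.974), and Kit by Zfp101 (0.924), Rlf (0.922) and Pskh1 (0.921).

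Around the receptors, the lists of their ligands, partners and targets were read by 1 probe per gene, the brightest detected one. Over all 8027 genes so measured, 23.2% were called higher and 18.7% lower by limma in the mean of both hairpins, with a median log2 fold change of 0.05. Of the 8 ligands of these receptors, 1 was measured and it was not called. Of 20 related receptors, 8 were measured and none was called by limma (median -0.06), although scaling over all probes called 4 higher and scaling over commonly detected probes 5 lower. In the Fc receptor family and its partners 1 of 6 measured genes was called, Inpp5d, the inositol phosphatase that acts downstream of the inhibitory Fc receptor. Inpp5d averaged 6.27 with hairpin 94, 6.31 with hairpin 97 and 5.14 with Luc, where 2 of 3 arrays detected it. Its log2 fold change of 1.15 (SE 0.241, adjusted p = 0.00392) was called as higher under all 6 ways of processing.

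Of 12 measured genes of JAK-STAT and receptor signalling, 3 were called higher and 2 lower (median 0.14). Scaling over commonly detected probes gave 1 higher and 3 lower calls, and scaling over all probes 11 higher and 0 lower. Tyk2, a JAK kinase, had a log2 fold change of 1.25 by its brighter probe (SE 0.181, adjusted p = 0.000567 by limma), called under all 6 ways of processing, but 0.24 by its other detected probe. Jak1, the kinase that pairs with many cytokine receptors, had -0.73 (adjusted p = 0.0302), but was detected on 2 knockdown and 2 Luc arrays and called under 4 of the 6. Neither hairpin 94 nor hairpin 97 alone gave a Jak1 call (limma adjusted p = 0.0688 and 0.0543). Stat6, counted among the higher calls, was detected on all 6 knockdown and 0 Luc arrays, and its bound was under 1, so no fold is given. Of 12 measured cytokine-induced targets and feedback inhibitors, 6 were called higher and 2 lower. Scaling over commonly detected probes gave 3 higher and 8 lower calls, and scaling over all probes 11 higher and 0 lower. Of the 6 higher after quantile normalization, Bcl2l1 and Etv6 were detected on 6 knockdown and 0 Luc arrays. They passed the filter through knockdown arrays alone, which leaves 4 higher and 2 lower among the 9 genes detected on a Luc array. Mcl1, a BCL2-family survival protein, had 1.35 (SE 0.141, adjusted p = 0.000146) and was higher under all 6. Dusp6, a phosphatase that dampens ERK signalling, averaged 6.33 with hairpin 94, 5.16 with hairpin 97 and 4.71 with Luc (log2 fold change 1.04 in the mean of both, adjusted p = 0.00105). It was detected on 1 Luc array, was not called with hairpin 97 (0.45, adjusted p = 0.101), and was 0.01 with scaling over commonly detected probes. Osm, the cytokine oncostatin M and a STAT5 target, had -0.94 (SE 0.106, adjusted p = 0.000183) and turned to 0.50 with scaling over all probes.

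Among 11 measured other surface proteins of stem and progenitor cells, 5 were called higher and 1 lower by limma (median 0.34). Scaling over commonly detected probes gave 3 higher and 4 lower calls, and scaling over all probes 10 higher and 0 lower. Vcam1, an adhesion receptor, had a log2 fold change of 1.01 (SE 0.225, adjusted p = 0.00522) and was higher under all 6 ways of processing. Prom1, which encodes CD133, is 1 of the 5, but its probe passed the detection filter through the brighter knockdown arrays alone (6 knockdown and 0 Luc arrays). After quantile normalization its signal was at least 1.34-fold higher there, a bound not computed under the other scalings. The other detected Prom1 probe had -0.13. Cd9, a tetraspanin, had 0.78 (adjusted p = 0.028), with detection on 1 Luc array, and was not called with hairpin 94 alone (limma adjusted p = 0.123). Prom1 and Cd9 turned to -0.21 and -0.26 with scaling over commonly detected probes.

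Most markers of granulocyte-macrophage progenitors were detected in every group, 10 or 11 of 12 genes with hairpin 94, 11 with hairpin 97 and 9 or 10 with Luc. Cebpa was detected on 0 Luc arrays, and Irf8 on 1 Luc array and no knockdown array. The labels name the cells leukemia stem cells, not these progenitors. Of the 11 measured markers, 3 were called higher and 0 lower by limma: Ms4a3 (1.32), Spi1 (0.76), which encodes PU.1, and Mpo (0.66), the myeloperoxidase of primary granules. Ms4a3 and Mpo were called higher under all 6 ways of processing and Spi1 under 2. Of the 11 markers, scaling over commonly detected probes called 2 higher and 3 lower, and scaling over all probes 10 higher and 0 lower. Mpo had 1.00 with hairpin 94 (adjusted p = 0.00132) and 0.32 with hairpin 97, not called (adjusted p = 0.133), and Spi1 was called with neither hairpin alone (0.0847 and 0.0886). The other detected probe of Ms4a3 had 0.83. Of the 6 measured genes of the mature neutrophil list all 6 were called higher, of which Ltf passed the filter through knockdown arrays alone (0 Luc arrays) and the other 5 were detected on Luc arrays too. Camp had 2.85, S100a9 1.98 and Ngp 1.91, and each was higher under all 6 ways of processing. The mean log2 level over 10 genes of that list was 7.22 to 7.41 with hairpin 94, 7.40 to 7.44 with hairpin 97 and 6.29 to 6.47 with Luc. Mmp8 of the list was detected on 0 arrays and Mmp9, Cxcr2 and Retnlg on 1 or 2 arrays each.

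Of 5 measured monocyte and macrophage markers 2 were called higher, F13a1 (0.58, detected on 1 Luc array) and Lyz2 (0.37). With hairpin 97 alone neither was called (limma adjusted p = 0.0835 and 0.218). Scaling over commonly detected probes called 1 of the 5 higher and 3 lower, and scaling over all probes 4 higher and 0 lower. The mean level over 8 genes was 5.36 to 5.43 with hairpin 94, 5.20 to 5.44 with hairpin 97 and 5.12 to 5.33 with Luc. Of 5 measured markers of mast cells, basophils and eosinophils 2 were called lower and 1 higher, the last being Cpa3, whose probe passed the filter through knockdown arrays alone. Prg2, the eosinophil major basic protein, had -1.18 (adjusted p = 0.0003 by limma) and Epx, the eosinophil peroxidase, had -0.65 (adjusted p = 0.00154, detected on 3 knockdown and 3 Luc arrays). After quantile normalization the signal of Cpa3, a mast cell protease, was at least 1.61-fold higher on the knockdown arrays. All 6 of these detected it, against 0 Luc arrays, and the bound was not computed under the other scalings. Il3ra is also expressed by eosinophils and basophils, and the mean level over the 11 genes was 5.41 to 5.53 with hairpin 94, 5.20 to 5.26 with hairpin 97 and 5.40 to 5.57 with Luc. Prg2 turned to 0.26 with scaling over all probes, F13a1 to -0.52 and Cpa3 to -0.07 with scaling over commonly detected probes. Epx stayed lower under all 6 ways of processing, from -1.48 to -0.04, and was called under 5. Of the 5 mast cell, basophil and eosinophil markers, scaling over all probes called 3 higher and 0 lower, and scaling over commonly detected probes 0 higher and 3 lower. Lymphoid (1 of 2 measured called lower, Nkg7 at -0.65 and 0.77 with scaling over all probes), erythroid and megakaryocyte (0 of 1 called) and stromal and endothelial markers (0 of 3 called) were mostly undetected. Nkg7 was not called with hairpin 94 alone (-0.29, limma adjusted p = 0.165). The part of these cell types in the changes of Fcgr3, Fcgr2b and Il3ra was not tested.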

How the data were processed

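For each array the deposited values are the mean bead intensity of every probe, per the file headers, and its detection p-value as the authors gave it. The authors also deposited processed log2 values, whose columns share the same distribution and the rank order of the signals. Their software is not given in the sources used here. With no scan date or slide at hand, no batch was tested.

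Signals were background corrected, quantile normalized and put on a log2 scale by the neqc function (offset 16; R 4.3.3, limma 3.58.1), which shrinks changes of dim probes. All 13641 probes with a detection p under 0.05 on at least 3 of 9 arrays were fitted with lmFit and eBayes (1 mean per group, no covariate), with Benjamini-Hochberg adjustment over all of them. All adjusted p-values of probes and genes come from this limma fit, tested on simulated data. Pairs of probes were compared by two-sided exact permutation of the arrays. Probes were named by the platform annotation (34885 of 45281 have 1 symbol). A probe undetected on all Luc arrays gets a bound against the lowest detected signal of each array, or no fold where the bound is under 1. Replicate numbers 1 to 3 are shared by hairpin 94 and Luc, with correlations of deviations of 0.068, 0.049 and 0.141, and the labels do not say that they pair the samples. The number of arrays limits the precision (median SE 0.153 for the mean of both hairpins).

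Genes and lists were chosen with earlier results of these data known. Named are every probe of the 10 genes, the 3 largest called changes of each list and the 3 genes most correlated with each probe detected on all arrays. The genes Mmp8, Mmp9, Cxcr2, Retnlg, Ltf, Bcl2l1, Etv6, Cebpa and Irf8 were named after their values were seen. Alternatives covered background correction, scaling, the detection filter, 1 probe per gene, the groups in the fit, brightness, a replicate block and each array left out.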

Additional observations from a re-analysis of the deposited data

How the results depend on the processing

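Between hairpins and Luc, 3 of the 12 probes were called higher and 1 lower in the mean of both hairpins, 3 with hairpin 94 and 6 with hairpin 97. Scaling over all probes gave 8 higher and 0 lower calls and 9 calls with hairpin 94. Scaling over commonly detected probes gave 7 lower calls and 9 with hairpin 94. Cyclic loess gave 2 lower calls, and 1 call between the hairpins, where quantile normalization gave 0. Without background correction hairpin 94 gave 5 calls, and without the detection filter, or with the compared groups alone, 1. Each array's count of detected probes as a covariate, nearly collinear with knockdown, left 0 calls in each comparison. Leaving out 1 array gave 2 to 3 higher calls, 1 to 2 lower, 1 to 4 with hairpin 94 and 2 to 6 with hairpin 97 (2 without hairpin 97 replicate 5, 1 with hairpin 94 without its replicate 2), and 0 between hairpins throughout. With the replicate block, hairpin 94 against Luc had 2 called probes in place of 3, Fcgr2b (ILMN_3102376) being lost at 0.73 (limma adjusted p = 0.0559), and 2579 in place of 4413 of 13641 probes. Luc replicates 2 and 3 deviated most like the hairpin 94 arrays of the same number (correlations 0.049 and 0.141). Luc replicate 1 deviated about equally like hairpin 94 replicate 2 (0.076) and replicate 1 (0.068). Such small correlations do not settle whether the samples are paired. Fitting only the groups compared gave no value for the mean of both hairpins. Over all 13641 probes the mean of both hairpins had 5485 calls, 9761 with scaling over commonly detected probes, 9958 with scaling over all probes and 0 with the covariate, and the comparison of hairpins had 19, against 135 without background correction, 155 in the authors' values and 190 with cyclic loess.

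Some directions turned, given for the mean of both hairpins, hairpin 94 and hairpin 97 in that order; apart from the arithmetic of each scaling, the cause was not tested. Kit (ILMN_1216898) and Cd34 were not above background on any Luc array, so their fitted differences from Luc are no folds and their turns show no direction. Scaling over commonly detected probes gave Kit (ILMN_1216898) -1.15, -1.24 and -1.06, Cd34 -1.21, -1.22 and -1.20, Fcgr2b (ILMN_3102376) -0.29, -0.35 and -0.22 and Csf2rb -0.51, -0.35 and -0.66. Fcgr2b (ILMN_3029178) had -0.42 in the mean and -0.11 with hairpin 97 there. Scaling over all probes gave Kit (ILMN_1246876) 1.13, 1.27 and 0.99, Il3ra 0.68, 0.70 and 0.66 and Csf1r 0.17, 0.18 and 0.15. There Csf3r had 0.22 in the mean and 0.58 with hairpin 94, and Fcgr2b (ILMN_3029178) 0.68 with hairpin 94. The covariate gave Cd34 -0.48, -0.50 and -0.46, Fcgr2b (ILMN_3102376) -0.30, -0.37 and -0.23 and Csf1r 0.31 in all 3, and Fcgr2b (ILMN_3029178) -1.21 in the mean and -0.92 with hairpin 97. Cyclic loess gave Fcgr2b (ILMN_3029178) -0.04 in the mean and Csf2rb -0.10 in the mean and -0.24 with hairpin 97. Leaving out 1 array moved Fcgr2b (ILMN_3029178) over -0.10 to 0.49 in the mean and -0.40 to 0.20 with hairpin 94, and Csf3r over -0.62 to 0.05 with hairpin 94. Csf2rb ran over -0.24 to 0.48 in the mean, -0.11 to 0.61 with hairpin 94 and -0.37 to 0.35 with hairpin 97. Between hairpins, Cd34 ran over -0.06 to 0.15, Fcgr2b (ILMN_1228657) -0.02 to 0.15, Il3ra -0.19 to 0.07 and Csf1r -0.12 to 0.12. Dim probes near background, with detection on few Luc arrays, limit what can be read for Cd34, Csf1r, Csf3r and Flt3.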
